A study of Rattus norvegicus with 18 samples.

Results

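INS-1 rat insulinoma cells kept without doxycycline were examined in 9 untreated arrays. Of these, 2, Control 24h replicate 1 and Control 5 day replicate 2, were chosen for raised Trib3 and raised genes of amino acid supply. These 2 arrays were set beside 6 other untreated arrays, 24h replicates 2 and 3, 48h replicates 1 to 3 and 5 day replicate 3. The remaining untreated array, 5 day replicate 1, also had raised Trib3. It was left out because its labels are in doubt (it is described at the end). The doubt rests on ER chaperone signals, high in this control and low in the doxycycline array of the same number. The series held 18 arrays in all. The 2 arrays were selected on their own signals of Trib3 and amino acid genes, so every value that compares them with the other untreated arrays is a description and carries no test. The choice did not use the doxycycline arrays of the same 2 experiments, and these were tested, although they come from the same experiments and their deviations correlated with those of the chosen controls (0.671 at 24 h, 0.116 at 5 days). The 5 day value uses group means that include the arrays of doubtful labels.

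All cells were of clone #4S2, 1 sorted pool derived from INS-1, a rat beta-cell line that makes insulin. They carried pTet-ON and, on pTRE-Tight, a fusion of EGFP with Ins2(C96Y), the mutant mouse insulin 2 of the Akita mouse, which misfolds in the endoplasmic reticulum (ER). The pool had been sorted by flow cytometry for bright EGFP after an earlier induction and grown on without doxycycline, so it is 1 line and not several independent ones. The line is described by the study as making a low basal amount of the fusion protein without induction. Control cells carried the same plasmids and stayed without doxycycline, while treated cells received doxycycline at 2 µg/ml over 24 h, over 48 h or over 5 days. Each of the 3 independent experiments at a time gave 1 control and 1 doxycycline array, and array signals are in the arbitrary linear units deposited.

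Cells answer a shortage of amino acids and a load of unfolded protein in the ER through kinases that phosphorylate the initiation factor eIF2α. General translation slows while the transcription factor ATF4 is made in greater amounts. ATF4 drives genes of amino acid synthesis, amino acid uptake and tRNA charging, together with CHOP (Ddit3) and the pseudokinase Trib3. GCN2 is the kinase for uncharged tRNA and PERK is the one for ER stress. ER stress also opens the IRE1/XBP1 and ATF6 branches, which raise chaperones such as GRP78 (Hspa5), and in beta-cells it is known as a route to loss of function and death.

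Promoters of 5 genes that the values below turn on are shown to let a reader compare the elements of the 2 programmes. The windows hold 250 bases before and 50 after the annotated start in RefSeq (assembly GRCr8), and capitals mark matches on either strand. The CARE core, TGATGNAA, is the composite element read by ATF4 with C/EBP partners. ERSE, which is CCAAT followed after 9 bases by CCACG, and ERSE-II, which is ATTGG followed after 1 base by CCACG, are the elements read by ATF6 and XBP1. Trib3 (chr3:161275484-161275783, minus strand) and Chac1 (chr3:126795881-126796180, plus strand) held the CARE core, starting 21 and 167 bases before the start, Herpud1 (chr19:10614658-10614957, minus strand) held both a CARE core and an ERSE-II, and Hspa5 (chr3:38452766-38453065, plus strand) and Creld2 (chr7:121789134-121789433, plus strand) held an ERSE.
Trib3: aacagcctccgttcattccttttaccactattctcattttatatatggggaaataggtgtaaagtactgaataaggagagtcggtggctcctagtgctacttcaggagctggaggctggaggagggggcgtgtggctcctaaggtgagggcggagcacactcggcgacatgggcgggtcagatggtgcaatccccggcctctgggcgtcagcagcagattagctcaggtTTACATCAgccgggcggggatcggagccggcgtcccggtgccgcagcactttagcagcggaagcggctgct
Chac1: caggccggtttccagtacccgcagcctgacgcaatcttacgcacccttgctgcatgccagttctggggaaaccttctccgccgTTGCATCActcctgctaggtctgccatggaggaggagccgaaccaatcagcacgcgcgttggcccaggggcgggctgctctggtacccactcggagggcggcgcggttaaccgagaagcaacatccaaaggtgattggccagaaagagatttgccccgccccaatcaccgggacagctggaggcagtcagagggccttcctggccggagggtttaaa
Herpud1: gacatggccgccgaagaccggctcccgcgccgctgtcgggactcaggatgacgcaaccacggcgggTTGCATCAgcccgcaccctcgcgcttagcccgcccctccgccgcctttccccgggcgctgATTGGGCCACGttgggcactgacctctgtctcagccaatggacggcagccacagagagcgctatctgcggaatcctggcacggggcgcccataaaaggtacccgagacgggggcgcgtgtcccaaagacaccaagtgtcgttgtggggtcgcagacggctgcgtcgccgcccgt
Hspa5: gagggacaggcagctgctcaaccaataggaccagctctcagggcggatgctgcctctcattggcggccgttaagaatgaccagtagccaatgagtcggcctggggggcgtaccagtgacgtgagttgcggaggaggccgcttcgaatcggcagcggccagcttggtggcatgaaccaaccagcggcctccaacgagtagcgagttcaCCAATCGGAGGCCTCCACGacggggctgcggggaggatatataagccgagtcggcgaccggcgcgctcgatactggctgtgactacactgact
Creld2: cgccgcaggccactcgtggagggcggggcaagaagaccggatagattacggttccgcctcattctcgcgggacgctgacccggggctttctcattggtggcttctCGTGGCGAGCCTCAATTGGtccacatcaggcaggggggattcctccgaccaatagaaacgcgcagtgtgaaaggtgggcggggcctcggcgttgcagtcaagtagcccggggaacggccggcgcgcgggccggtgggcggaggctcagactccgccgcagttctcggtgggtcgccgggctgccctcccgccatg

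The CARE core stood in 3.98% of all 33469 promoter windows, ERSE in 0.0657% and ERSE-II in 0.0508%. Of the promoters matched by symbol, the CARE core stood in 7 of 17 for cytosolic tRNA synthetases, among them Mars1 and Cars1, in 5 of 19 for ATF4 and CHOP factors and targets, in 3 of 13 for amino acid transport and in 3 of 19 for amino acid synthesis, Pycr1 included. It stood in 0 of 28 promoters of ER chaperones, of which 7 held ERSE and 2 held ERSE-II, and in 0 of 18 promoters of mitochondrial tRNA synthetases. A match says only that these letters lie in the window. In the pancreatic acinar list, none of whose genes had enough signal to be tested, 2 of 7 promoters held the CARE core.

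Signals were compared on the log2 scale over 15521 probe sets, those whose mean signal reached the 50th percentile, and a probe set was counted as above or below only where both raised arrays lay outside all 6 others. By that rule 1756 probe sets (11.3%) were above and 1402 (9.03%) below, and with a difference of at least 2-fold added, 83 (0.535%) were above and 21 (0.135%) below. These shares are the background for the counts of members that follow. The 83 probe sets named 54 genes, of which 30 belonged to the lists described here: 12 to ATF4 and CHOP factors and targets, 8 to amino acid synthesis, 5 to cytosolic tRNA synthetases, 4 to amino acid transport and 1, Herpud1, to ER-associated degradation. None was an ER chaperone. The 21 probe sets named 15 genes, 3 of them ER chaperones or folding factors (Creld2, Sdf2l1 and Pdia4). Without Control 24h replicate 1 the counts were 306 and 115, without Control 5 day replicate 2 they were 66 and 74, and without Control 24h replicate 2 they were 95 and 32. The split was 79.8% above under the deposited scaling and 67.3% (76 above, 37 below) after quantile normalization.

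The raised arrays had median signals of 135.0 and 138.6 against 118.6 to 128.5 in the 6 others, so the groups did not overlap in this either. The ratio of the 3′ to the 5′ GAPDH probe sets, a measure of RNA integrity, was 1.062 and 1.060 in the raised arrays and under 1.1 in 2 of the 6 others, Control 24h replicate 2 and Control 48h replicate 1, while the remaining 4 lay above it. Those 2 arrays are among the 6 that defined the counts, so the direction against them was fixed, and only the size could change: 64 of the 83 and 16 of the 21 probe sets still differed by at least 2-fold against them alone. Apart from these within-split values, the part of array quality in the differences was not tested.

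Trib3, which restrains AKT signalling and was the gene that picked the arrays, had a signal of 482 in Control 24h replicate 1 and 4838 in Control 5 day replicate 2. The 6 others lay between 99.3 and 160, with a median of 123. The lowest value of the chosen arrays was thus 482, and the highest of those 6 was 160. The left-out untreated array, Control 5 day replicate 1, read 865, above the lower chosen value. The gap between 160 and 482 therefore holds only without that array. Between the chosen arrays and the 6 others the difference was 3.62 log2 units (12.3-fold). A pair of further Trib3 probe sets differed by 3.71 and 3.49.

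Atf4, the transcription factor itself, read 7775 and 13950 in the raised arrays, and the others ran from 4108 to 5181 (median 4731). Ddit3, encoding the pro-apoptotic factor CHOP, read 1093 and 5320 against 722 to 915 (median 835), which put the first raised array only a little above the others. Chac1, whose product degrades glutathione, read 1268 and 2680 against 219 to 381 (median 255). All of these genes were above the others in both raised arrays, and in all of them the 5 day array was the higher. The differences were 1.15 for Atf4, 1.56 for Ddit3 and 2.77 for Chac1, in log2 units. Atf3, another stress-induced bZIP factor, differed by 1.87, from 167 and 937 against 77.3 to 134, and the stress-responsive cofactor Nupr1 by 1.56. Over the list of ATF4 and CHOP factors and targets, 17 of 22 genes were tested, and 13 were above, 0 below, with a median difference of 1.11 where that of all probe sets was 0.03. The median was 0.42 in the 24 h array and 1.79 in the 5 day array, so the larger share came from the latter.

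**Figure D1:**
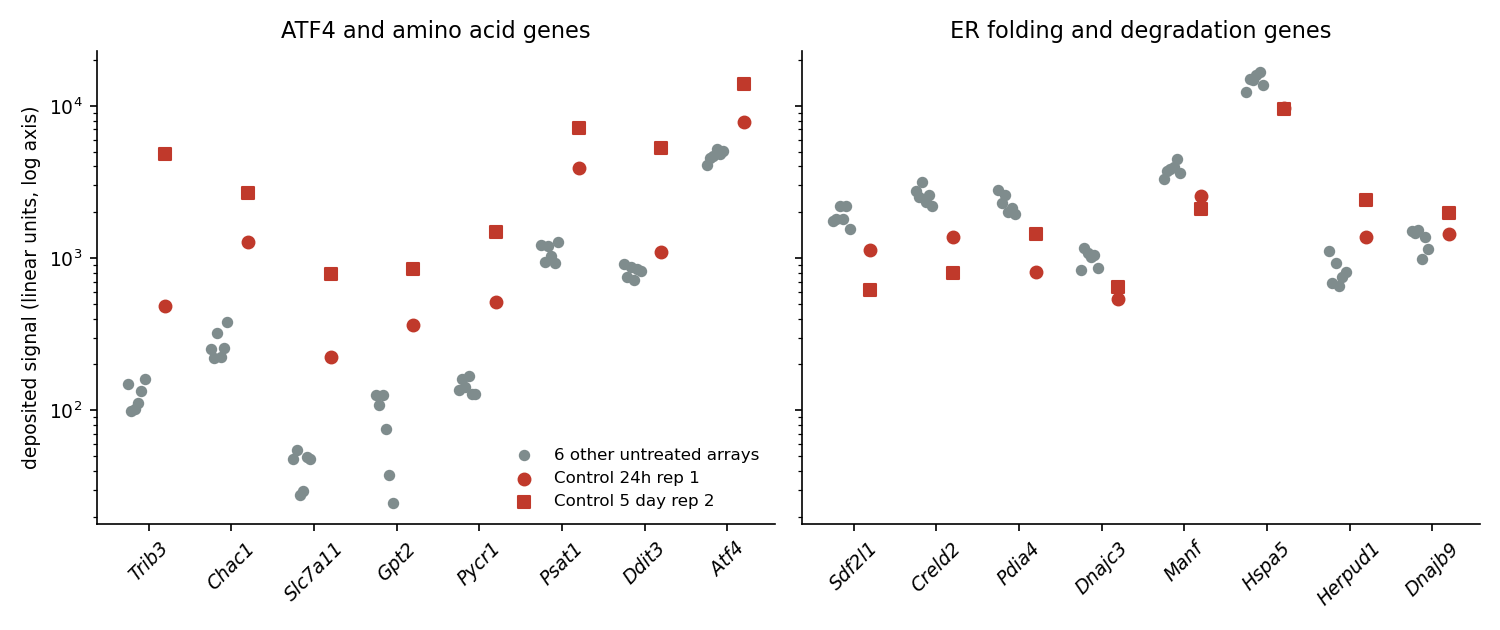
Deposited signal (log axis) of 16 genes in the untreated arrays, with grey points for the 6 other arrays, a red circle for Control 24h replicate 1 and a red square for Control 5 day replicate 2. Both red points lie above all grey points for the ATF4 and amino acid genes and for Herpud1, below them for Sdf2l1, Creld2, Pdia4, Dnajc3, Manf and Hspa5, and among them in part for Dnajb9.

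Enzymes that make amino acids formed the next group. Psat1, an enzyme of serine synthesis, read 3925 and 7154 against 931 to 1269 in the 6 others (median 1112). Pycr1, which makes proline, read 516 and 1478 against 128 to 169 (median 140). Gpt2, a mitochondrial alanine aminotransferase, read 363 and 849 against 24.7 to 126 (median 92.0). None of these overlapped, although the 6 other values of Gpt2 were widely spread (SD 0.99 log2 units, against 0.17 for Pycr1). The differences were 2.28, 2.61 and 2.98 log2 units. Mthfd2, of the mitochondrial folate cycle, differed by 1.70, Psph by 1.46, Shmt2 by 1.22 and Aldh18a1, the first enzyme on the way to proline, by 0.93. Asns, asparagine synthetase and a classical ATF4 target, differed least of the non-overlapping members: 7277 and 11335 against 5700 to 6652, a difference of 0.57. Of 15 tested genes out of 23 listed, 10 were above and 0 below, with a median of 0.93 (0.57 in the 24 h array and 1.28 in the 5 day array). The overlapping members were Got1, Glul, Pycr3, Oat and Shmt1. Phgdh, the entry enzyme of serine synthesis, had a signal of 5.8 and 8.7 in the raised arrays and was too dim to be tested.

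Amino acid transporters were the third group. Slc7a11, the light chain of the cystine-glutamate exchanger, read 224 and 783 against 27.6 to 54.6 (median 48.0), a difference of 3.34. Slc7a1, a carrier of cationic amino acids, read 3557 and 6796 against 1608 to 1690 (median 1633), so that the 6 other arrays spread by only 0.03 log2 units (SD) around a difference of 1.58. Slc1a4, a carrier of neutral amino acids, differed by 1.80 and the glycine carrier Slc6a9 by 1.58. Slc3a2, the shared heavy chain, differed by 0.85. Of 12 tested genes out of 16 listed, 7 were above and 0 below, with a median of 0.83 (0.37 and 1.31 in the same arrays). The carrier Slc7a5 overlapped: it read 523 and 2052, and only the 5 day array stood apart.

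The aminoacyl-tRNA synthetases, which load tRNAs with their amino acids, divided by compartment. Of the 19 cytosolic enzymes tested, 13 were above and 0 below, with a median difference of 0.85 (0.40 and 1.19 in the same arrays), whereas of 11 mitochondrial enzymes 0 were above and 0 below, with a median of 0.00. Cars1, for cysteine, read 1428 and 1822 against 564 to 717 (median 647). Mars1, for methionine, read 4019 and 5256 against 1768 to 2215 (median 2005). Eprs1, for glutamate and proline, read 2351 and 4386 against 1308 to 1624 (median 1497). Each was higher in both raised arrays, by 1.33, 1.20 and 1.12 log2 units. Iars1 and Nars1 also passed 2-fold. The cytosolic members Kars1, Hars1, Qars1, Farsa, Rars1 and Wars1 overlapped, with differences from -0.36 for Kars1 to 0.18 for Wars1. The mitochondrial Yars2 had the widest difference of its list, 0.32, from 377 and 560 against 322 to 425, and the groups overlapped. The list of eIF2α itself, its kinases, the GCN2 pathway and the constitutive phosphatase subunit Ppp1r15b showed 0 of 8 above and 1 below (Eif2ak1, the haem-regulated kinase, at -0.19). The stress-induced phosphatase subunit Ppp1r15a (GADD34), counted with the ATF4 targets, read 449 and 1427 against 318 to 402, a difference of 1.11. The GCN2 gene Eif2ak4 read 509 and 522 against 399 to 811.

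The ER chaperones and folding factors ran the other way. Hspa5, the chief Hsp70 of the ER, read 9622 and 9523 in the raised arrays, and the 6 others ran from 12273 to 16619 (median 14802). Sdf2l1, a partner of the ER Hsp40 chaperones, read 1123 and 613 against 1562 to 2214 (median 1814). Creld2, a disulfide-handling protein induced by ER stress, read 1370 and 798 against 2213 to 3148 (median 2557). Both raised arrays lay below every other untreated array in all 3 genes, by 0.61, 1.18 and 1.30 log2 units. Pdia4, a disulfide isomerase, read 810 and 1432 against 1946 to 2793, a difference of -1.08. Manf, a secreted ER protein, read 2541 and 2115 against 3322 to 4463, a difference of -0.72. Dnajc3, an Hsp40 co-chaperone, differed by -0.75. Of 30 tested genes out of 31 listed, 17 were below and 0 above, with a median of -0.30. The medians of the 24 h and the 5 day array were alike, at -0.37 and -0.34, although the ATF4 list differed between the same arrays by more than 1 log2 unit. Ero1a, Hyou1, Sec63 and Pdia5 overlapped with differences between 0.04 and 0.26.

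Genes of ER-associated degradation and of the IRE1 and ATF6 branches split. Herpud1, which assembles the machinery of ER-associated degradation and whose window holds both elements, read 1366 and 2411 against 658 to 1106 (median 778), a difference of 1.16, and was the only member of its list above the others on the probe set of highest signal. Sel1l, the adaptor of the HRD1 ligase, read 2897 and 6506 against 2314 to 3626 on that probe set and overlapped in the 24 h array. Of its other probe sets, 1 overlapped too (0.47) and 1 was above the others, at 1361 and 2404 against 914 to 1217, a difference of 0.81. Dnajb9, an Hsp40 of the IRE1 branch, read 1436 and 1972 against 982 to 1536 and overlapped too. Xbp1 mRNA read 5789 and 5894 against 5558 to 6592, a difference of -0.02; the probe sets do not separate spliced from unspliced Xbp1. Of 16 tested genes of ER-associated degradation, 1 was above and 8 were below (Edem2 at -0.56, Derl2 at -0.49), with a median of -0.17. Of 11 genes of the IRE1 and ATF6 branches, 1 was above (Atf6, at 0.59) and 5 below, with a median of -0.21, and the secretory cell factor Bhlha15 (MIST1) read 184 and 183 against 256 to 388. Ssr3, of the translocon, read 4889 and 5419 against 5680 to 10020, and its difference shrank from -0.67 to -0.23 against the 2 arrays of like GAPDH ratio.

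**Figure D2:**
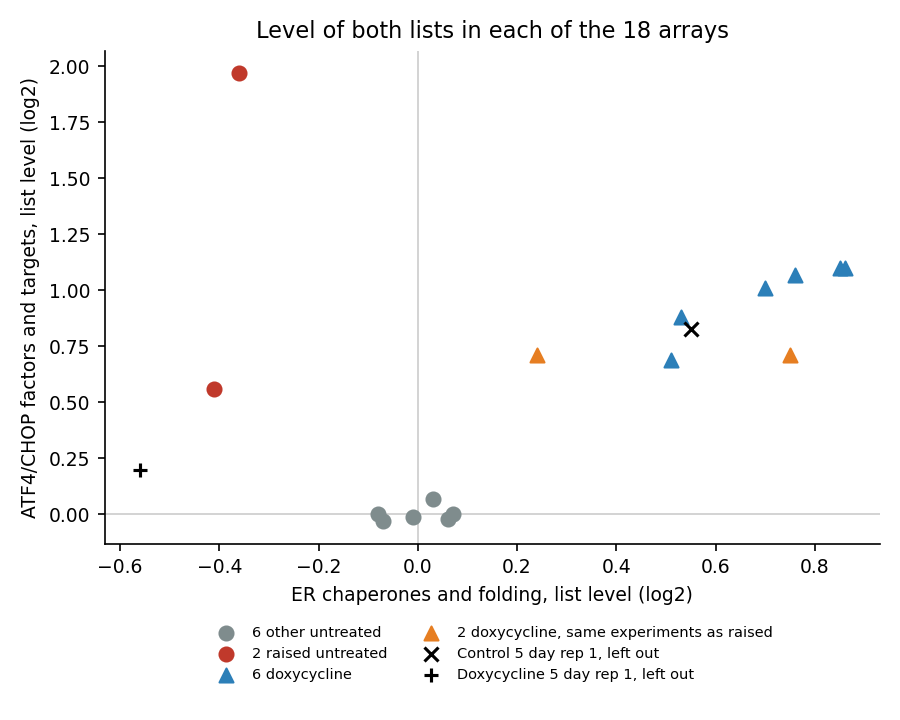
Mean log2 level of the tested members of 2 lists in each of the 18 arrays, relative to the 6 other untreated arrays, with ER chaperones and folding factors on the horizontal axis and ATF4 and CHOP factors and targets on the vertical axis. The raised untreated arrays lie at -0.41 and -0.36 for chaperones and at 0.56 and 1.97 for ATF4 genes, whereas all 8 doxycycline arrays apart from the left-out one lie at 0.24 to 0.86 for chaperones and at 0.69 or more for ATF4 genes, which reach 1.1.

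Within the untreated arrays compared here, the 2 lists therefore had opposite levels in the raised arrays. The left-out untreated array had both lists up, at 0.55 for chaperones and 0.83 for the ATF4 list. Its high chaperones were the reason its labels were doubted, so the statement depends on leaving it out. The mean level of the ATF4 list was 0.56 and 1.97 in the raised arrays and ran from -0.03 to 0.07 in the 6 others. That of the chaperone list was -0.41 and -0.36, and ran from -0.08 to 0.07 in the 6 others. Against the 2 arrays of like GAPDH ratio alone, the median difference was 1.12 for the ATF4 list, 1.09 for amino acid synthesis, 0.70 for transport, 0.68 for cytosolic tRNA synthetases and -0.31 for chaperones. The same medians within 5 days, against 1 other array, were 1.83 for the ATF4 list and -0.28 for chaperones.

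Other groups were lower in the raised arrays. Idi1, an enzyme of isoprenoid synthesis, read 3870 and 2160 against 5594 to 7230 (median 6378). Fdft1, squalene synthase, read 844 and 542 against 998 to 1669 (median 1224). Insig1, which holds the sterol sensor in the ER, read 1908 and 1727 against 2782 to 4260 (median 3377). These 3 were below all others by 1.14, 0.89 and 0.89 log2 units. Of 18 tested genes of sterol and fatty acid synthesis, 11 were below and 1, Acaca, was above, with a median of -0.64 (-0.31 in the 24 h array and -0.89 in the 5 day array). NRF2 targets, which handle oxidative stress, showed 5 of 11 below and 0 above, with Gsr at -0.76 and Txnrd1 at -0.64, and their median was -0.09 in the 24 h array and -0.59 in the 5 day array. Cell cycle genes showed 5 of 22 below and 0 above, with a median of -0.39 that was -0.08 in the 24 h array and -0.71 in the 5 day array. Ccnb2, a mitotic cyclin, read 1596 in the 24 h array, within the 1554 to 1938 of the others, and 742 in the 5 day array. Glucose-responsive genes showed 0 of 7 above and 0 below, hypoxia and glycolysis genes 3 of 14 above and 3 below, and cytosolic heat shock genes 0 of 8 above and 3 below. Egr1, an immediate early factor, read 1368 and 1494 against 757 to 1043, while Dusp1 read 2334 and 2692 against 2840 to 5157.

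Beta-cell genes were high in all arrays, as the label of the line says. Ins1 read 15918 and 16197 in the raised arrays and 16493 to 34569 in the others, and Chga read 15048 and 16380 against 16256 to 30160. Of 21 beta-cell genes, 4 were below (Ins1, Ins2, Chgb and Sytl4) and 0 above, with a median of -0.24. For Ins1 the difference of -0.48 became -0.12 against the 2 arrays of like GAPDH ratio, while for Sytl4, the granule protein granuphilin, it stayed at -0.78 and -0.80. None of the 7 acinar and none of the 5 macrophage markers passed the filter on signal, and their summed signals were 113 to 139 against 144 to 207 for acinar and 116 to 140 against 72 to 146 for macrophage markers. Glucagon (Gcg), the alpha-cell hormone, read 359 in the 24 h array and 2100 in the 5 day array, against 754 to 2380, so the raised arrays did not share this gene. In these bulk samples fewer cells of a type and less RNA per cell cannot be told apart.

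Among genes outside the lists, Serpinb9b, a protease inhibitor, had the widest difference, at 123 and 1172 against 40.8 to 67.3, which is 2.74 log2 units. Hrk, a BH3-only death factor (1.85), Dusp6, a phosphatase of ERK (1.35), and Ctns, the lysosomal cystine exporter (1.30), also passed 2-fold and were named after their values were seen. On the low side Stc1, a secreted glycoprotein hormone, read 211 and 726 against 776 to 1347 on its probe set of widest difference (-1.52), and the other probe sets differed by -1.15 and -1.05. Gnptab read 306 and 328 against 335 to 1705, a difference of -1.50 that came to -0.14 against the 2 arrays of like GAPDH ratio. Psmd14, a proteasome subunit, read 121 and 181 against 270 to 478 on its dimmest probe set, a difference of -1.30, but its brighter probe sets differed by only -0.35 and -0.26. Nt5dc2 and Plpp3 differed by -1.26 and -1.18.

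The question raised by these values is whether the same genes change when doxycycline induces the mutant insulin. No array held doxycycline without the transgene, so effects of the drug and of the mutant insulin cannot be told apart here. For parental INS-1 cells the study reports, without showing the data, no change of Grp78 (Hspa5) or Chop (Ddit3) with doxycycline. Other genes were not covered there. The effect of doxycycline was therefore fitted by limma in the 6 pairs of the other experiments, with the pair as a block. Those pairs hold the same 6 control arrays that served above, so the comparisons are not independent, and their values are only set side by side. In this fit 1283 probe sets (8.27%) were higher and 1356 (8.74%) lower at a Benjamini-Hochberg adjusted p under 0.05, and 743 and 738 were lower without the pairs of 48h replicate 1 and 48h replicate 3. Trib3 rose with doxycycline, from 99.3 to 160 in the controls to 912 to 2096 in the doxycycline arrays (median 1317), by 3.44 log2 units (SE 0.20, adjusted p 4.07e-05). Chac1 rose by 2.10 (SE 0.14, adjusted p 9.56e-05), Atf4 by 1.31 (SE 0.06, adjusted p 3.02e-05) and Asns by 0.54 (SE 0.07, adjusted p 0.00233). Atf3 rose by 0.73 (SE 0.10, adjusted p 0.00321).

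Doxycycline raised 12 and lowered 2 of 15 genes of amino acid synthesis (median 0.79), raised 8 and lowered 2 of 12 transporters (median 0.46), raised 14 and lowered 0 of 19 cytosolic tRNA synthetases (median 0.65), and raised 0 and lowered 1 of 11 mitochondrial ones. It raised 13 of 17 ATF4 and CHOP factors and targets (median 0.70), 26 of 30 chaperones and folding factors (median 0.60), 12 of 16 genes of ER-associated degradation and 10 of 11 of the IRE1 and ATF6 branches, and lowered 0 of each. Sdf2l1 rose by 1.87 (SE 0.06, adjusted p 1.91e-05), Creld2 by 1.37 (SE 0.06, adjusted p 2.27e-05) and Hspa5 by 0.66 (SE 0.05, adjusted p 0.000144). Oat, which makes ornithine, rose by 1.07 with doxycycline (adjusted p 0.000237), and in the raised untreated arrays its difference was -0.14, with overlap. The sterol list showed 1 gene higher and 0 lower of 18 with doxycycline, with a median of -0.05. Doxycycline lowered 15 and raised 1 of 21 beta-cell genes (median -0.33), lowered 9 and raised 0 of 22 cell cycle genes, and lowered 1 and raised 0 of 11 NRF2 targets. Stc1 fell by 1.87 (SE 0.13, adjusted p 0.000114) and Gcg fell by 2.18 (SE 0.30, adjusted p 0.00262).

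**Figure D3:**
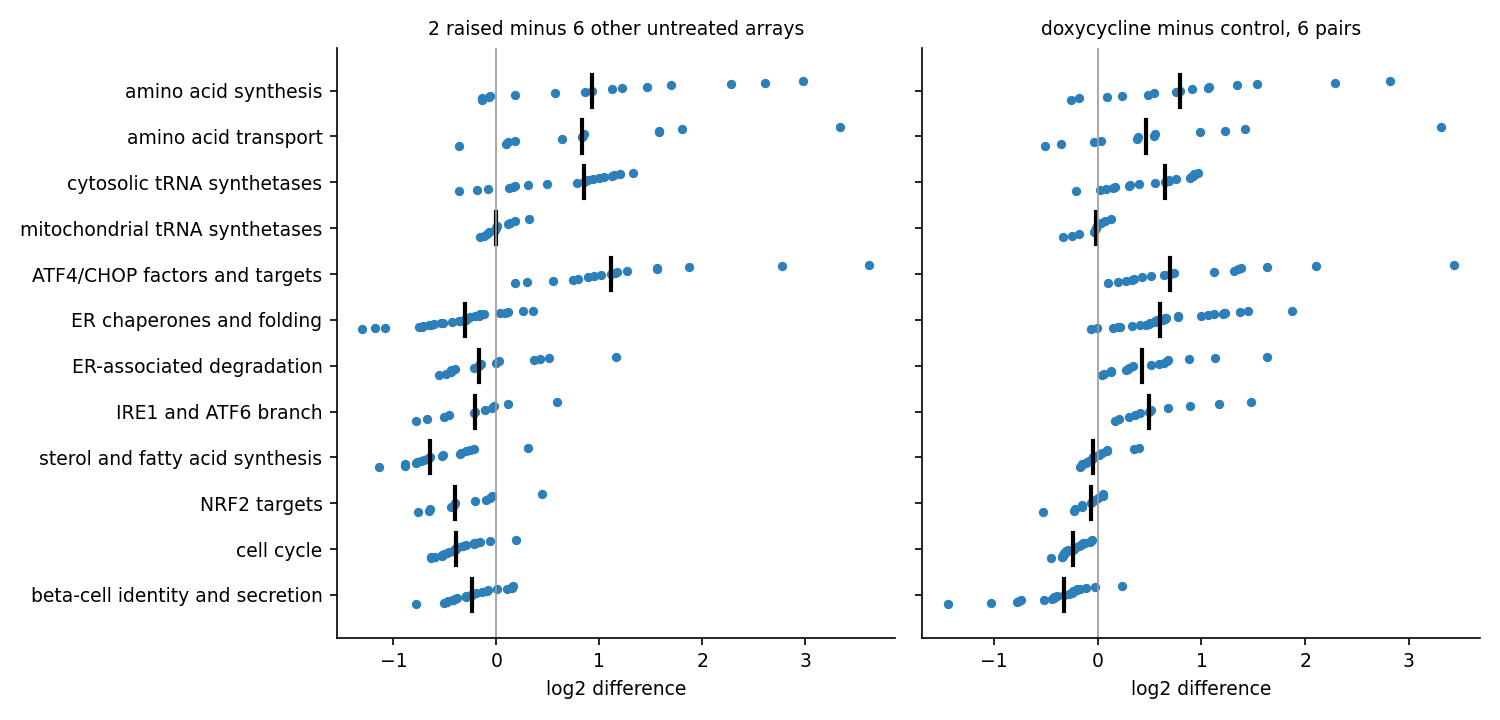
Log2 differences of the tested members of 12 gene lists (blue points, 1 per gene), with the list median as a black bar, for the raised minus the other untreated arrays on the left and for doxycycline minus control in 6 pairs on the right. On the left the medians of the 3 lists of amino acid supply and of the ATF4 list lie between 0.83 and 1.11 and that of the chaperones at -0.30, and on the right the same lists lie between 0.46 and 0.79 and the chaperones at 0.60. Both panels use the same 6 control arrays.

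The doxycycline arrays of the 2 raised experiments bear on a separate question. It is whether the doxycycline cultures of these experiments, which were not the untreated cultures themselves, differed from other doxycycline cultures. They were compared with the other doxycycline arrays in limma with time as a covariate. No raised experiment lies at 48 h, so the difference itself rests on 2 arrays against 3 (24h replicates 2 and 3 and 5 day replicate 3), and the 48 h arrays add only to the estimate of the spread. In this fit 0 probe sets were higher (0%) and 0 lower (0%) at an adjusted p under 0.05. The counts at an unadjusted p under 0.05 were 616 and 757, and the smallest adjusted p was 0.531. Trib3 read 669 and 706 in these doxycycline arrays and 912, 1110 and 1196 in those 3, a difference of -0.66 (SE 0.20, adjusted p 0.531). Chac1 read 1266 and 1166 against 884, 1198 and 994, a difference of 0.27 (SE 0.18, adjusted p 0.564). Sdf2l1 read 5017 and 5764 against 5883, 6928 and 5060, a difference of -0.12 (SE 0.17, adjusted p 0.78). Hspa5 read 16856 and 20514 against 18835, 24175 and 21956, a difference of -0.24 (SE 0.19, adjusted p 0.608). With 2 arrays against 3, such p-values do not show that the cultures were alike.

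Library quality differed in this comparison. Doxycycline 5 day replicate 2 had a GAPDH 3′ to 5′ ratio of 2.911 and a median signal of 91.2, and its median correlation with the other 17 arrays was 0.932 where the rest had 0.952 or more. Leaving out either array of the pair leaves 1 array on its side, which is then assumed to vary like the others. Without Doxycycline 5 day replicate 2, Doxycycline 24h replicate 1 alone stood against 24h replicates 2 and 3, and 0 probe sets were higher and 1 was lower. Without Doxycycline 24h replicate 1, the comparison was in effect 5 day replicate 2 against 5 day replicate 3, and 359 were higher and 2016 lower.

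Set against its own control, each raised experiment had higher ER chaperones with doxycycline. Of the 30 tested chaperones and folding factors, 29 had a ratio above 0 in each of the 2 experiments, with medians of 0.62 and 0.99. The 6 other experiments had 27 to 30 of them above 0, with medians of 0.48 to 0.72. Of the 46 tested genes of the 3 lists of amino acid supply, 26 were above 0 and 20 below in the 24 h experiment (median 0.04), and 4 were above and 40 below in the 5 day experiment (median -0.36), where the doxycycline array is the one of high GAPDH ratio. In the 6 other experiments 36 to 42 of the 46 were above 0, with medians of 0.36 to 0.71. The mean level of all tested probe sets was 0.04 in Control 5 day replicate 2 and -0.20 in its doxycycline array. How far this lower level enters the low 5 day ratios was not tested. In the 24 h experiment that level was 0.04 in both arrays. The share of all probe sets with a ratio above 0 was not counted. Sdf2l1 went from 1123 to 5017 at 24 h and from 613 to 5764 at 5 days, or by 2.16 and 3.23 log2 units, and by 1.70 to 2.13 in the 6 other experiments. Trib3 went from 482 to 669 and from 4838 to 706, or by 0.47 and -2.78, and by 2.62 to 4.36 in the others. Psat1 went from 3925 to 3646 and from 7154 to 5364, or by -0.11 and -0.42, and by 1.03 to 1.76 in the others. Pycr1 and Slc7a11 still had higher signals with doxycycline at 24 h, by 0.99 and 0.89, and not at 5 days, at -0.48 and -0.06. These ratios contain the controls that were chosen for their high signals, so that low ratios of such genes follow in part from the choice, and no test is given.

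**Figure D4:**
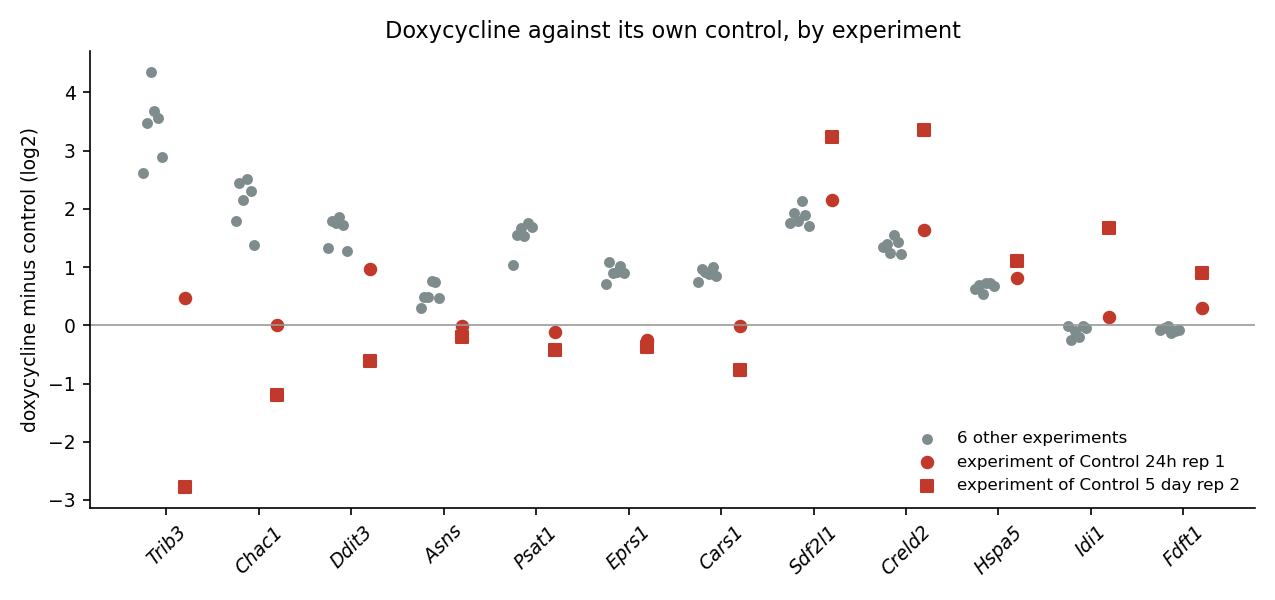
Doxycycline minus control (log2) in each experiment for 12 genes, with grey points for the 6 other experiments, red circles for the 24 h and red squares for the 5 day experiment whose control was raised. The red points lie below the grey ones for Trib3, Chac1, Ddit3, Asns, Psat1, Eprs1 and Cars1 and above them for Sdf2l1, Creld2, Hspa5, Idi1 and Fdft1.

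The untreated array left out, labelled Control 5 day replicate 1, read 6475 for Sdf2l1, above every other untreated array, and 865 for Trib3. The library labelled Doxycycline 5 day replicate 1 read 913 and 326. Their chaperone list levels were 0.55 and -0.56, and those of the ATF4 list were 0.83 and 0.20. With the untreated library added to the others, 31 probe sets were above and 9 below by at least 2-fold.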

How the data were processed

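Clone #4S2 RNA was run on Affymetrix Rat Genome 230 2.0 arrays, 1 for each of 3 independent experiments in 6 groups (18 arrays). Per the labels, each deposited value is a linear signal intensity of 1 probe set. The 2% trimmed mean of every array lay between 500.14 and 500.17, so scaling preceded deposit; the program used is not given in the sources read. The number of arrays limits the precision, and 0 of 153 array pairs were identical.

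Of 31099 probe sets, 57 were controls and were dropped. The platform annotation, updated through RefSeq, gave 20826 probe sets 1 gene (20758 matched), 436 several and 9768 none, and 12 were named from a supplementary list of the study. Signals under the 10th percentile (5.96) were set to it before log2, and 15521 probe sets, those reaching the 50th percentile of mean signal, were used. Each gene is shown by its brightest probe set, except that the largest increases and decreases are single probe sets. Limma (version 3.58.1, R 4.3.3) with Benjamini-Hochberg adjustment had been tested on simulated data with independent normal noise. For the comparison of doxycycline arrays, the simulated means and spread were taken without Doxycycline 5 day replicate 2. That simulation therefore does not cover an array of such quality. To check the pairing, deviations from the group mean were correlated between same-numbered arrays: the 24 h pairs gave 0.671, 0.478 and 0.662, the 48 h pairs 0.579, 0.266 and 0.378, the 5 day pairs 0.136, 0.116 and 0.111. The 5 day means held both replicate 1 arrays, whose labels are in doubt, and arrays of unlike number were not correlated. The study also compares same-numbered arrays by experiment, so they were taken as pairs.

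The genes named are 12 fixed ones, the 4 members of each list with the widest difference, and the 10 largest increases and decreases without overlap that kept their direction within 24 h and 5 days. Other members named in the text were chosen after their values were seen. Arrays, members and lists were chosen with earlier results of these data known. The alternatives were quantile normalization, other filters and floors, leaving out each array or pair, single times, the fit without pairs and, added after the data were seen, the split by GAPDH ratio.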

Additional observations from a re-analysis of the deposited data

Results flagged for a closer look

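Among the genes chosen by the naming rule, 7 of amino acid supply had doxycycline ratios under 0 in both raised experiments on their brightest probe set. Their ratios were above 0 in all 6 other experiments. The share of all probe sets with these signs was not counted. Apart from Asns, a fixed name, the naming rule took these genes for wide differences in the same controls that the ratios contain. Low ratios follow in part from that choice. The log2 ratios at 24 h and 5 days were -0.01 and -0.20 for Asns, -0.11 and -0.42 for Psat1, -0.15 and -0.36 for Mthfd2 and -0.12 and -0.79 for Slc6a9. They were -0.02 and -0.76 for Cars1, -0.03 and -0.20 for Mars1 and -0.26 and -0.38 for Eprs1. Nars1, which that rule did not choose, had the same signs, at -0.02 and -0.08. The 24 h values of Asns, Cars1, Mars1 and Nars1 lay within 0.03 of 0. Other tested probe sets were above 0 at 24 h for Eprs1 (0.19 and 0.27), Mars1 (0.06) and Slc6a9 (0.05). Other members of the same lists had ratios above 0 at 24 h, among them Pycr1 at 0.99, Slc7a11 at 0.89, Slc1a4 at 0.39 and Gpt2 at 0.37.

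Among the named genes, Idi1 and the mitotic kinase gene Aurka had ratios above 0 in both raised experiments and under 0 in all 6 others. Idi1 stood at 0.15 and 1.67 on the probe set of higher signal and at 0.06 and 1.96 on the other. Aurka stood at 0.07 and 0.22. The same held on the brightest probe set of Fdft1, at 0.29 and 0.90, and of the Hsp40 gene Dnaja1, at 0.02 and 0.55. It did not hold on their other tested probe sets, where Fdft1 was above 0 in 1 of the others (0.06) and Dnaja1 was at -0.15 in the 24 h raised experiment. None of these differences was tested, and all ratios use the controls that were chosen for their signals. The naming rule took these genes for wide differences in those controls. The share of all probe sets with this pattern was not counted. All 5 day ratios of the raised experiment, here and above, use Doxycycline 5 day replicate 2, whose GAPDH ratio was 2.911.

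The library labelled Control 5 day replicate 1, in no comparison, had a Trib3 signal of 865.3 and an Sdf2l1 signal of 6475.4, both above the 6 other untreated arrays.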

How the results depend on the processing

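The counts of probe sets above and below by at least 2-fold (83 and 21) rested on the 2 arrays chosen. They were 66 to 306 above and 20 to 115 below when each array was left out in turn, 306 and 115 without Control 24h replicate 1 and 66 and 74 without Control 5 day replicate 2, 87 and 82 within 24 h, 501 and 262 within 5 days, 487 and 150 without a filter on signal, 37 and 9 above the 75th percentile of signal, 76 and 37 after quantile normalization, 31 and 9 with Control 5 day replicate 1 added, and 108 and 30 among arrays with a GAPDH ratio under 1.1. The floor at 50 units gave 83 and 20. Over these settings the medians ran from 0.40 to 1.83 for the ATF4 list, 0.51 to 1.28 for amino acid synthesis and 0.37 to 1.44 for transport. They ran from 0.40 to 1.21 for cytosolic tRNA synthetases, -0.38 to -0.28 for chaperones and -0.26 to -0.12 for ER-associated degradation. None of these 6 changed sign. Every setting kept at least 1 of the arrays chosen for raised Trib3 and amino acid genes. The constant sign of the ATF4 and amino acid lists therefore follows at least in part from that choice. The sign of the chaperone list carries no test either, since the arrays were chosen with earlier results known. Control 5 day replicate 1, at 0.83 for the ATF4 list and 0.55 for chaperones, was in no setting placed with the raised arrays. The effect of doxycycline (1283 higher, 1356 lower) gave 765 and 565 with no replicate block, 447 and 216 without a filter, 389 and 230 in the 48 h pairs alone, and 868 to 1083 and 738 to 1028 with each pair left out, of which 743 and 738 lower came without pairs 48h 1 and 48h 3. The doxycycline arrays of the raised experiments gave 0 to 359 higher and 0 to 2016 lower with each array left out, 359 and 2016 without Doxycycline 24h replicate 1 and 0 and 1 without Doxycycline 5 day replicate 2 or 3 (the difference then rests on the 24 h arrays alone), and 0 and 0 with the time term dropped or the GAPDH split added. Where values moved, the cause was not tested. Dim genes, such as Phgdh, could not be judged.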
